A study of Mus musculus with 4 samples.

Results

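The genes described here are the desaturases and lipogenic enzymes of the heart, 10 genes listed by symbol: Scd1, Scd2, Scd3, Scd4, Fasn, Elovl6, Acaca, Acacb, Fads1 and Fads2. Of these, 9 had a named probe set among the 19505 named genes of the array, and Scd2 was not analysed here. The list was chosen by function with measured values of these same arrays in view, among them the Tbx6 minus PBS differences of Scd4 at day 7 and of Scd1 at day 30. The day differences may have been in view as well, so every difference of these 9 genes is given as a description without a p-value. Low genes were filtered out at the median of the gene means (5.30 in log2 units), which left 9753 genes and 8 of these 9.

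RNA came from hearts of ICR (Jcl:ICR) mice, an outbred stock. Newborn pups had received a viral vector carrying Tbx6, a T-box transcription factor of early mesoderm, or phosphate-buffered saline (PBS), and hearts were taken 7 or 30 days later. Per the labels the injection was given under the dorsal skin, while other label fields speak of the neonatal heart. There was 1 array for each of PBS at day 7, Tbx6 at day 7, PBS at day 30 and Tbx6 at day 30. All groups were of 1 stock and 1 tissue, the control held no vector, and the sources used here do not state the vector's promoter, the sex of the animals or any pooling of hearts. Of 10 heart muscle cell markers, all were above background on every array, among them Myh6 at 19.75 to 19.93, close to the highest value in the table (19.93). All 8 liver markers were at background on every array.

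Fatty acids are built in the cytosol from acetyl-CoA. Acetyl-CoA carboxylase makes malonyl-CoA, fatty acid synthase strings malonyl-CoA into palmitate, and the elongase ELOVL6 lengthens palmitate to stearate. Stearoyl-CoA desaturases (SCD) place a double bond in the middle of these chains to give palmitoleate and oleate, whereas FADS1 and FADS2 desaturate the essential fatty acids toward arachidonate and docosahexaenoate. The heart mostly burns fatty acids, and there malonyl-CoA serves chiefly to restrain their entry into mitochondria.

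All values below are log2 expression values as deposited, and a difference of 1 is a doubling. A reading at or below the highest of the 23 background probe sets of its array (5.77 to 6.05) is called at background. Values of different probe sets are not on a common scale, so only arrays are compared.

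Among the stearoyl-CoA desaturases, Scd1 had the widest range over the arrays of the 9 genes. Scd1, the main SCD of liver and fat, read 9.32 with PBS and 8.94 with Tbx6 at day 7. At day 30 it read 13.28 with PBS and 14.86 with Tbx6. Both day 30 readings lay above both day 7 readings. The day difference was 3.96 after PBS and 5.92 after Tbx6, or 15.5-fold and 60.6-fold, which were number 21 and number 2 from the top among the 9753 filtered genes.

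Scd4, the isoform known for its expression in the heart, had another order. At day 7 it read 7.80 with PBS and 11.60 with Tbx6, and at day 30 it read 8.49 with PBS and 6.98 with Tbx6. The Tbx6 array of day 7 stood far above the other 3, and the Tbx6 array of day 30 was the lowest. Tbx6 minus PBS was 3.81 at day 7, a 14.0-fold difference and number 1 from the top of the filtered genes, and -1.52 at day 30. The days therefore differed by 0.70 after PBS and by -4.63 after Tbx6. Scd3, an isoform of skin and its glands, read 3.03, 2.92, 4.22 and 3.93 in the same order of arrays. All 4 of its readings were at background, so no difference of Scd3 is measured.

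In the RefSeq gene order (GRCm38.p6) the Scd genes lie side by side on chromosome 19 as Scd3, Scd2, Scd4 and Scd1. The Tbx6 minus PBS difference of Scd4 at day 7 (3.81) was the highest of all filtered genes. No filtered neighbour could therefore exceed it, and nothing is read from their smaller values. Of the flanking genes, Bloc1s2, a subunit of a lysosome-related complex, differed by 0.79 between Tbx6 and PBS at day 7, Cwf19l1 by -0.32, the complex I subunit gene Ndufb8 by 0.72 and the oxygen-sensing hydroxylase gene Hif1an by 0.22, while Pkd2l1, Wnt8b and Sec31b were at background on all arrays. Bloc1s2 and Ndufb8 were at least 1.5-fold higher with Tbx6 at day 7, as were 7.23% of all filtered genes. Bloc1s2 was also highest on the Tbx6 array of day 7 (9.61). A difference of the whole region was not tested. These neighbours were named for their position and after their values were seen. Scd genes are close paralogues, and which of their transcripts each probe can bind was not tested. The readings of Scd1 and Scd4 went in opposite directions between the PBS and the Tbx6 array on both days.

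RefSeq promoter windows, from 250 bases before to 50 bases after the annotated start, were found for 7 of the 10 genes. Scd1, Scd2 and Fads1 had no window and were not searched for any motif. The windows of Scd3 (chr19:44203038-44203337, plus strand) and Scd4 (chr19:44333076-44333375, plus strand) are shown because Scd3 had the lowest readings of the SCD genes and Scd4 the largest difference between injections. Fasn (chr11:120824498-120824797, minus strand) is shown because its readings followed the order of Scd1 over the 4 arrays. Capitals mark matches to TTTAAA in the Scd windows and to CCAAT on either strand in that of Fasn.
Scd3: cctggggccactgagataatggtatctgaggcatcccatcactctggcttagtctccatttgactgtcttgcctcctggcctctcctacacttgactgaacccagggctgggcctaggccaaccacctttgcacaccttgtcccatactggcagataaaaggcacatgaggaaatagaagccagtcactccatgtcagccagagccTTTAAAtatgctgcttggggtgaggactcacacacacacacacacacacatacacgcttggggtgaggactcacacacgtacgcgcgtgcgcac
Scd4: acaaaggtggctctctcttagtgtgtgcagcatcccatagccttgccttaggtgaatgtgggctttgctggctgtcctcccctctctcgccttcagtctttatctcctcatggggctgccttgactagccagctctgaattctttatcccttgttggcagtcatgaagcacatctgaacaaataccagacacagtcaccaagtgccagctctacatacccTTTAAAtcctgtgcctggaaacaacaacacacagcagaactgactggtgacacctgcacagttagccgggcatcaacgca
Fasn: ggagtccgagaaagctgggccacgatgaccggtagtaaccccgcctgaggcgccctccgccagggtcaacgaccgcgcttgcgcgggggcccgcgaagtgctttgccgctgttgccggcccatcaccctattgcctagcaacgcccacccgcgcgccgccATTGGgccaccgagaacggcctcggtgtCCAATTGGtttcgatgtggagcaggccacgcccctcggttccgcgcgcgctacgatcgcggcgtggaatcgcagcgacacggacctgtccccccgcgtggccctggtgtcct

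The letters TTTAAA began at position -44 in Scd3 and -30 in Scd4, counted from the start as 0, and were found in 13.2% of the 32851 windows of the table. Acaca also held them, at -160. The TATA box letters TATAAA, in 13.6% of windows, were found in Acacb, at -34. The Scd3 and Scd4 windows were 59.5% identical over 336 aligned columns. The other 20 pairs among the 7 genes had 41.4% to 51.0%. The Fasn window held CCAAT at position -62 and its reverse complement at -90 and -59, of which the matches at -62 and -59 overlap. CCAAT, searched on both strands, is in 37.4% of all windows, and among the 7 genes Acacb also had it. The sterol element letters TCACNCCAC (1.24% of windows) and the E-box CACGTG (7.15%) had 0 matches in the 7 windows, which says only that these letters are not there. TTTAAA was added to the search after the windows had been read.

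**Figure D1:**
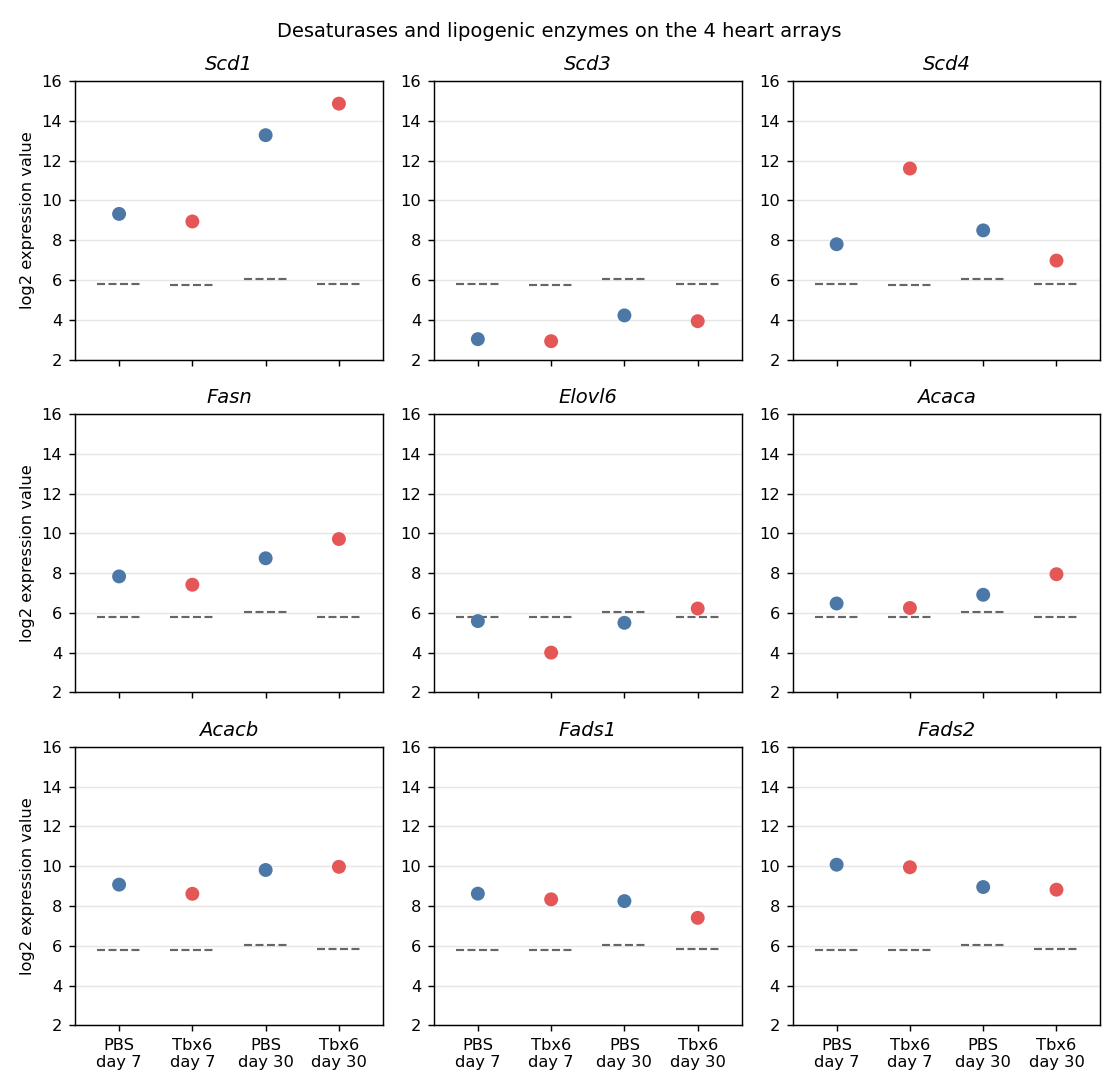
Log2 expression value of the 9 genes with a named probe set on each of the 4 arrays (blue points PBS, red points Tbx6), with dashed lines at the highest background probe set of each array. Scd1 is high on both arrays of day 30, Scd4 on the Tbx6 array of day 7 alone (11.60), and Scd3 lies under the dashed lines throughout.

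The enzymes that make palmitate were higher at day 30 after both injections. Fasn, fatty acid synthase, read 7.83 (PBS) and 7.42 (Tbx6) at day 7, then 8.75 and 9.71 at day 30. Acaca, the cytosolic acetyl-CoA carboxylase of lipid synthesis, read 6.47 and 6.25 at day 7, and 6.91 and 7.95 at day 30. For both genes the order from lowest to highest was Tbx6 at day 7, PBS at day 7, PBS at day 30 and Tbx6 at day 30, as it was for Scd1. The share of all filtered genes with this order was not counted, so nothing is read from it. The day difference of Fasn was 0.91 after PBS and 2.29 after Tbx6, and that of Acaca 0.44 and 1.70.

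Acacb, the carboxylase at the mitochondrial surface whose malonyl-CoA restrains fatty acid oxidation, read 9.08 (PBS) and 8.61 (Tbx6) at day 7, then 9.81 and 9.97 at day 30. Its arrays had the same order, with day differences of 0.74 and 1.36. Elovl6 read 5.59 (PBS) and 4.004 (Tbx6) at day 7, then 5.50 and 6.22 at day 30. Only the Tbx6 array of day 30 was above background, by so little that its excess over the PBS array of day 30 is bounded at 0.17 or more and over the Tbx6 array of day 7 at 0.45 or more.

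The desaturases of essential fatty acids ran the other way. Fads2, which takes the rate-limiting first step, read 10.08 (PBS) and 9.95 (Tbx6) at day 7, then 8.96 and 8.82 at day 30. Its day difference was -1.12 after PBS and -1.13 after Tbx6, and the injections differed by -0.13 on each day. Fads1, which acts later in the same route, read 8.62 and 8.34 at day 7, and 8.25 and 7.41 at day 30. Its day difference was -0.37 after PBS and -0.93 after Tbx6, and the Tbx6 array of day 30 was the lowest.

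The question of how the heart differed between days was addressed with an additive model of day and injection (limma, 1 residual degree of freedom), in which the pair of injections is the only replication. Its standard errors (SE) combine a variance shared over genes, weighted as 7.46 degrees of freedom, with each gene's own 1. Where the 2 injections agreed, as for Fads2, the SE came almost wholly from the shared variance. A larger SE, such as that of Scd4, carries the gene's own disagreement between injections. The fitted day difference was 4.94 (SE 0.42) for Scd1, 1.60 (SE 0.34) for Fasn, 1.07 (SE 0.32) for Acaca and 1.05 (SE 0.26) for Acacb. It was -1.12 (SE 0.24) for Fads2, -0.65 (SE 0.26) for Fads1, 1.07 (SE 0.46) for Elovl6, mostly at background, and -1.97 (SE 0.95) for Scd4, whose injections disagreed in sign. No call is made for these genes, since the list was chosen with values in view. In these whole-heart samples more cells of a type and more RNA per cell cannot be told apart. Macrophage markers were also higher at day 30, with 7 of 9 tested genes at an adjusted p under 0.05 upward (limma, against 14.2% of all filtered genes) and 0 downward, 5 to 6 of 9 above background at day 7 and 8 to 9 at day 30, and summed log2 values of 62.6 to 64.3 at day 7 and 77.9 to 82.0 at day 30. Their part in the differences of the lipogenic genes was not tested.

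**Figure D2:**
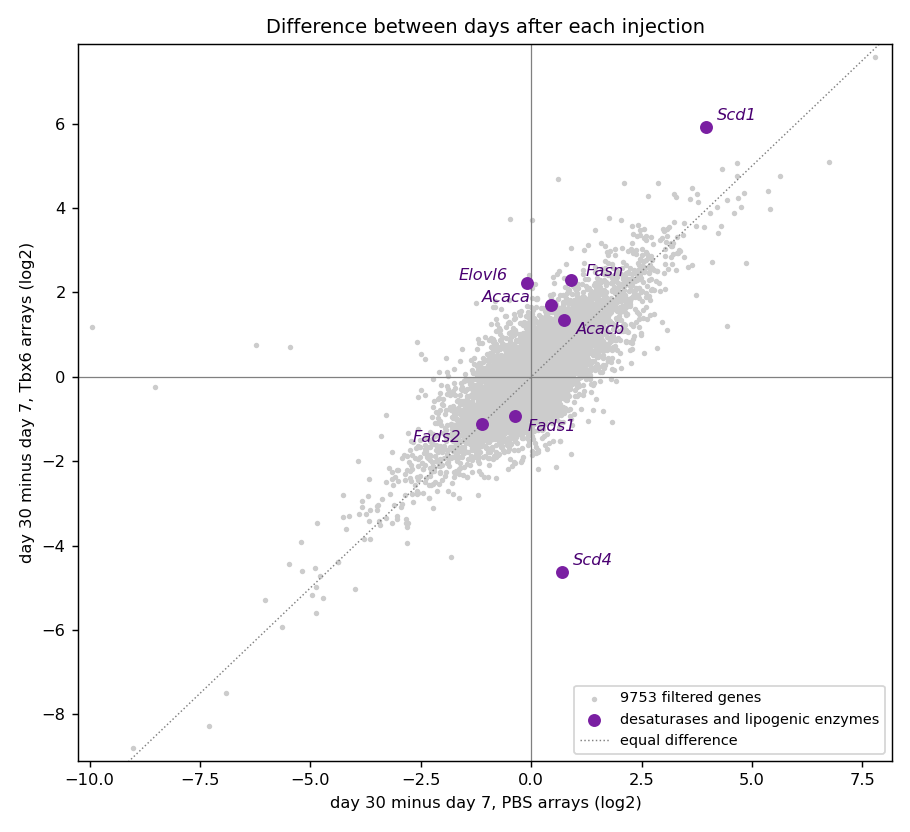
Day 30 minus day 7 (log2) after PBS on the horizontal axis and after Tbx6 on the vertical axis, with 9753 filtered genes in grey and the 8 filtered lipogenic genes in purple. Scd1, Fasn, Acaca and Acacb lie above the dotted line of equal difference, Fads2 lies on it (-1.12 and -1.13), and Scd4 is far below it (0.70 and -4.63).

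The comparison of Tbx6 with PBS has 1 array on each side and no replicate check. At day 7, of the 8 filtered genes, Scd4 was at least 1.5-fold higher and 0 were lower with a reading above background, since both readings of Elovl6 (-1.58 as deposited) were at background. Over all filtered genes the shares were 7.23% higher and 8.41% lower. The remaining differences at day 7 were small and negative: -0.38 for Scd1, -0.42 for Fasn, -0.23 for Acaca, -0.46 for Acacb, -0.29 for Fads1 and -0.13 for Fads2. At day 30, Scd1 (1.58), Fasn (0.97) and Acaca (1.03) were at least 1.5-fold higher, against 7.13% of all filtered genes, and Scd4 (-1.52) and Fads1 (-0.84) at least 1.5-fold lower, against 6.06%. Acacb (0.16) and Fads2 (-0.13) were within 1.5-fold. Elovl6 had a deposited difference of 0.72, but with the PBS reading at background only a difference of 0.17 or more is measured. Scd1 was number 10 from the top of the filtered genes at day 30, Acaca number 90 and Fasn number 129. The choice of the list used these differences, so nothing is read from the counts. For injection, the additive model (limma) called 0 of 9753 genes (0%) at an adjusted p under 0.05, against 421 at an unadjusted p under 0.05. It called 0 as well without the filter, with the background filter, after quantile normalisation and with a variance trend.

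Fat cell markers differed between the same pairs of arrays. Adipoq, which encodes the fat hormone adiponectin, read 7.98 (PBS) and 6.08 (Tbx6) at day 7, then 7.49 and 9.83 at day 30. Car3, a carbonic anhydrase of fat and muscle, read 11.51 and 9.30, and then 11.53 and 13.01. Ucp1, the uncoupling protein of brown fat, read 11.92 and 7.60 at day 7, and was at background after PBS (5.69) and at 8.34 after Tbx6 at day 30. For these 3 markers, named for their large differences, the Tbx6 array was the lower of its pair at day 7 and the higher at day 30. Cidec was also lower after Tbx6 at day 7 (-0.96). Cidea was higher (0.53), and Pparg (0.011), Fabp4 (-0.037) and Lipe (-0.13) differed little on that day. Of 9 tested fat markers, 0 were at least 1.5-fold higher and 4 lower at day 7 (median -0.33), against 7.23% and 8.41% of all filtered genes. At day 30, 7 were higher and 0 lower (median 1.28), against 7.13% and 6.06%. The medians over all filtered genes were -0.02 and 0.01. The summed log2 values of 13 markers were 104 (PBS) and 92.4 (Tbx6) at day 7, then 94.7 and 110 at day 30, with 9, 8, 7 and 9 of the 13 above background. Plin1, Lep and Adig were at background on every array. Between days 2 of the 9, Retn and Pparg, rose and 0 fell, against 14.2% and 12.1% of all filtered genes. The adjusted p of Retn and Pparg by limma was 0.000435 and 0.00875, and the median of the 9 was 0.93. Both day 7 readings of Retn were at background, so its rise is bounded at 1.07 or more after PBS and 1.57 or more after Tbx6. The day 7 median of -0.33 is the difference of Retn, so it is not a measured difference.

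Scd1, Fasn and Acaca went the same way as Adipoq, Car3 and Ucp1 within each pair of arrays, though by far less at day 7. Scd4 and Fads1 went against them at day 30. The part of fat tissue in the lipogenic readings was not tested. The PBS array of day 7 also stood apart in the airway genes Scgb1a1 (12.89) and Scgb3a1 (10.80), which were at background on the other 3 arrays. They belong to a list of 8 lung epithelial markers, of which 5 were at background on every array. Cyp2f2, the remaining marker, read 8.17 with PBS at day 7 and 6.31 with Tbx6 at day 30, and was otherwise at background. All day 7 differences between injections share the PBS array of that day.

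**Figure D3:**
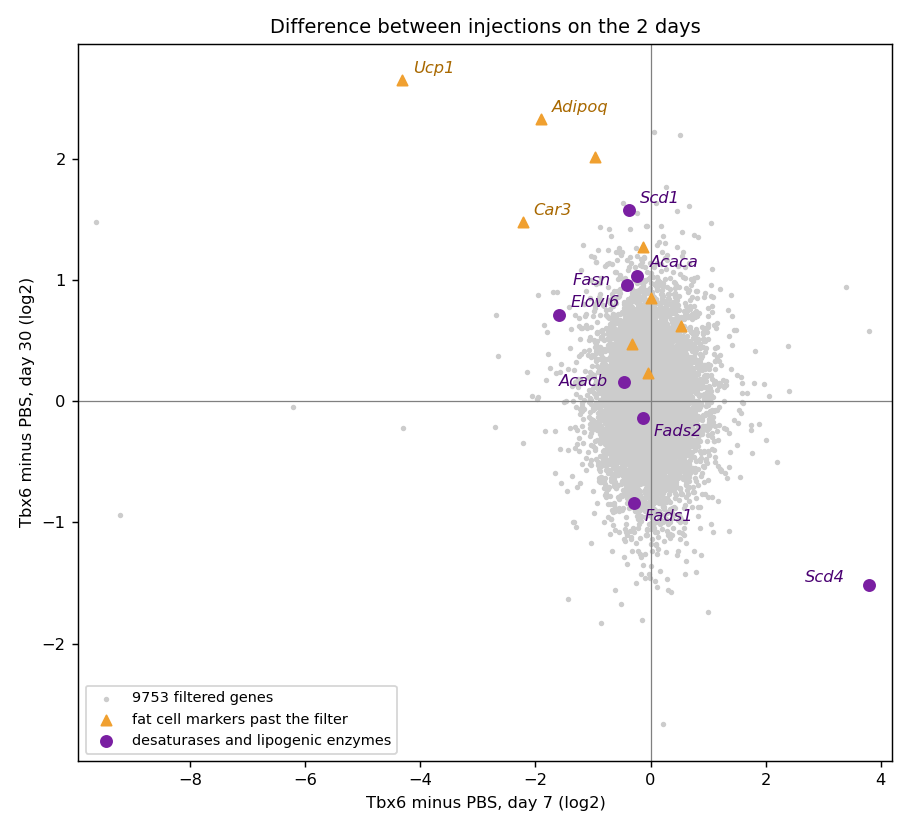
Tbx6 minus PBS (log2) at day 7 on the horizontal axis and at day 30 on the vertical axis for 9753 filtered genes (grey), the 8 filtered lipogenic genes (purple) and 9 fat cell markers (orange triangles). Scd4 sits alone at the lower right (3.81 and -1.52), and Scd1, Fasn and Acaca lie at the upper left, on the side of Adipoq, Car3 and Ucp1. Acacb (-0.46 and 0.16) lies there too, nearer the centre. Elovl6 is drawn at the upper left from its deposited values, but both its day 7 readings were at background.

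Genes whose 4 values, centred on their own mean, lay nearest to those of Scd4 and Scd1 were taken among 7884 filtered genes above background on all arrays. The distance is the root of the summed squared log2 differences over the 4 arrays. Nearest to Scd4 were Ppdpf, the synaptic protein gene Adam22, the cilium gene Lca5, Olfml2a and the ubiquitin ligase gene Mid1, at distances of 1.80 to 2.06. Each of these 5 was highest on the Tbx6 array of day 7, which the choice by distance to Scd4 favours, so nothing is read from it. Their Tbx6 minus PBS differences at day 30 were -0.50, -0.32, -0.096, -0.015 and 0.94, against -1.52 for Scd4. Adam22, for example, read 6.07, 8.07, 6.22 and 5.90 in the order PBS and Tbx6 at day 7, PBS and Tbx6 at day 30. Nearest to Scd1 were Ptgds (0.82), which encodes a prostaglandin D synthase, the interferon-inducible gene Ifi207 (1.17), Kansl1l (1.26), Klhl38 (1.27) and the zinc finger gene Zbtb16 (1.27). Ptgds read 8.74, 8.94, 13.41 and 14.00 in the same order. Fasn was number 239 in nearness to Scd1 (distance 3.37), Acaca 534 (3.89), Acacb 700 (4.02) and Scd4 7848 (7.83). These distances are well beyond those of the nearest 5. Values were not scaled to each gene's range, so the size of a difference weighs on the rank.

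The remaining lipid genes were read from 7 lists drawn up by pathway, with earlier results of these data known. Most genes named from them were picked for the size of their differences. Counts and adjusted p-values of these lists, and of the marker lists above, are therefore descriptions. The day differences of the listed genes were tested by limma with Benjamini-Hochberg adjustment over all 9753 genes. Over all filtered genes 26.3% passed the threshold of 0.05 for day, 14.2% upward and 12.1% downward, and each list count below is to be read against these shares. Among genes that supply acetyl-CoA and NADPH to fatty acid synthesis, 4 of 7 tested rose with day and 0 fell, with a median of 0.95 against -0.02 over all filtered genes. Me1, the malic enzyme that yields NADPH, read 8.52 and 9.52 at day 7, and 10.60 and 10.59 at day 30, after PBS and Tbx6, and rose by 1.58 (SE 0.30, adjusted p = 0.00626 by limma). Slc25a1, the citrate carrier, rose by 1.13 (SE 0.24, adjusted p = 0.0113 by limma) and the NADP-dependent isocitrate dehydrogenase gene Idh1 by 0.95 (SE 0.24, adjusted p = 0.022 by limma). Acss2, which makes acetyl-CoA from acetate, rose by 1.03 (SE 0.28, adjusted p = 0.0291 by limma), a call lost without the filter (adjusted p = 0.0537). Acly, ATP citrate lyase, read 9.62 and 9.67, then 8.75 and 9.20, a difference of -0.67 that did not pass (adjusted p = 0.0818 by limma).

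Among the regulators of lipogenesis 6 of 15 tested rose and 1 fell, with a median of 0.65, and Srebf1 was not analysed here. The largest were Mid1ip1 and Thrsp, partner proteins known to promote acetyl-CoA carboxylase activity and lipogenesis. Mid1ip1 had both day 7 readings at background and day 30 readings of 8.47 (PBS) and 8.64 (Tbx6), higher by at least 2.67 and 2.87 (adjusted p = 2.59e-05 by limma on the deposited values). Thrsp read 7.20 and 6.16 at day 7, and 9.85 and 10.46 at day 30, and rose by 3.47 (SE 0.37, adjusted p = 0.000435 by limma). Within each pair of arrays Thrsp ran with Scd1 and Fasn, with Tbx6 minus PBS of -1.04 at day 7 and 0.61 at day 30.

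Nr1h3, the liver X receptor alpha that senses oxysterols, rose by 1.65 (SE 0.25, adjusted p = 0.00207 by limma). The glucose-responsive factor genes Mlxipl, Mlxip and Mlx rose as well, with adjusted p of 0.0281, 0.0188 and 0.0363 by limma. Whether these calls hold under the alternative settings was not examined gene by gene. Srebf2, the sterol-sensing factor of cholesterol synthesis, read 10.70 and 10.29, then 9.16 and 9.50, and fell by 1.17 on the log2 scale (SE 0.27, adjusted p = 0.0158 by limma). Insig1, which holds these factors in the endoplasmic reticulum, had a day difference of -0.11 (adjusted p = 0.804 by limma) and was higher after Tbx6 by 0.82 at day 30.

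Downstream, in triacylglycerol and phospholipid synthesis, 3 of 12 tested genes rose and 0 fell, with a median of 0.47. Dgat2, which completes triacylglycerol, read 9.27 and 9.20 at day 7, and 13.32 and 13.08 at day 30, and rose by 3.96 (SE 0.24, adjusted p = 4.18e-05 by limma). Agpat2, an acyltransferase of fat tissue, rose by 2.39 (SE 0.35, adjusted p = 0.00178 by limma) and Lpin1, a phosphatidate phosphatase, by 2.29 (SE 0.24, adjusted p = 0.000411 by limma). Unlike Scd1, Dgat2 was not higher after Tbx6 at day 30 (difference -0.24).

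In the other elongation enzymes 1 of 8 tested rose and 1 fell, close to the shares over all genes. Tecr, the reductase of the last elongation step, read 14.00 and 13.79, then 16.22 and 16.24, and rose by 2.34 (SE 0.24, adjusted p = 0.000393 by limma). Hacd1, the muscle dehydratase of the third step, fell by 1.02 on the log2 scale (SE 0.24, adjusted p = 0.0167 by limma). Among the other desaturases and their electron donors 1 of 6 rose and 0 fell. Cyb5a, cytochrome b5, which passes electrons to the SCD and FADS enzymes, read 10.33 and 10.36, then 12.03 and 12.07, and rose by 1.71 (SE 0.24, adjusted p = 0.0016 by limma).

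Of the genes around malonyl-CoA 1 of 6 tested rose and 1 fell. Cpt1a, the liver-type carnitine palmitoyltransferase that malonyl-CoA inhibits, fell by 1.03 on the log2 scale (SE 0.26, adjusted p = 0.0214 by limma). Prkaa2, a catalytic subunit of the kinase that inactivates acetyl-CoA carboxylase, rose by 0.91 (SE 0.24, adjusted p = 0.026 by limma), a call lost after quantile normalisation (0.73, adjusted p = 0.063). The muscle-type Cpt1b read 15.28 to 15.46 on all arrays.

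Cholesterol synthesis, the neighbouring pathway under Srebf2, had 3 of 14 tested genes that rose and 1 that fell, with a median of 0.10. Fdft1, squalene synthase, rose by 1.59 (SE 0.32, adjusted p = 0.00812 by limma) and Sc5d, a sterol desaturase, by 1.16 (SE 0.26, adjusted p = 0.0125 by limma). Hsd17b7, a sterol reductase, was at background after Tbx6 at day 7 and rose by 2.16 on the deposited values (adjusted p = 0.000548 by limma). Stard4, a sterol carrier, fell, with both day 30 readings at background (adjusted p = 0.00752 by limma).

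**Figure D4:**
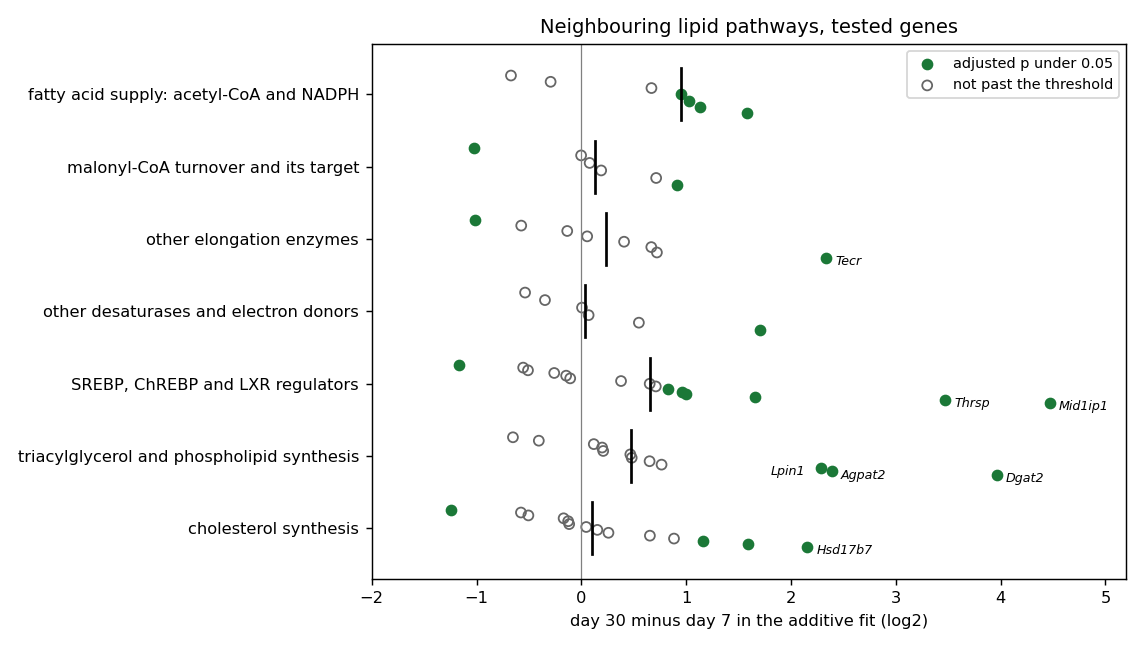
Day 30 minus day 7 in the additive fit (log2) for the tested genes of the 7 lipid lists, filled green where the limma adjusted p was under 0.05, with a black bar at the median of each list. The lists of acetyl-CoA and NADPH supply (0.95) and of regulators (0.65) have the highest medians, and the largest single values are those of Mid1ip1, Dgat2 and Thrsp.

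Marker lists of other tissues gave few readings above background. Of the Schwann cell and myelin markers 5 of 6 were at background on every array, and of the skin and sebaceous markers 7 of 8. Of the lung epithelial markers 5 of 8 were. The exceptions were Pmp22, which read 14.17 to 15.11, Mgst1, which read 9.97 to 11.95, and Scgb1a1, Scgb3a1 and Cyp2f2, given above.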

How the data were processed

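Heart RNA was hybridised to 1-colour mouse Clariom S arrays, 1 for each of 4 groups. The authors made the deposited log2 values by SST-RMA with Affymetrix Expression Console 1.4, per the submitters' processing notes and series text. They were taken as log2 values from their range and the usual output of RMA, since the base is not given in the sources used here. Gene names came from the platform annotation. For 55 genes with several probe sets the one with the highest mean was kept.

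Differences between single arrays had no further normalisation. An additive model of injection and day was fitted to all 9753 filtered genes with limma 3.58.1 in R 4.3.3 (lmFit, eBayes, two-sided, Benjamini-Hochberg). It was also run on simulated data with independent noise and the same added day difference after both injections. That run does not cover genes whose injections disagree, such as Scd4. Precision is limited by the number of arrays. Nothing says that the 4 RNA samples came from more than 1 animal each, and no group held a replicate. The p-values rest on how far the day difference disagreed between the injections, moderated by variance shared over genes. They do not measure the spread between animals. Sequences were read with Python 3.11.15 and aligned with Biopython 1.88.

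The members and lists were chosen with earlier results of these data known. Named genes were all members, in each list up to 4 by day difference and up to 2 by each Tbx6 minus PBS difference among genes above background on at least 2 arrays, and the 5 genes nearest to Scd4 and to Scd1. Other genes were named after their values were seen. Alternatives were quantile normalisation, median centring, no filter, a background filter, a model without injection, a variance trend, raised background readings, probe set means and a 2-fold rule, and, added later, each injection alone.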

Additional observations from a re-analysis of the deposited data

Results flagged for a closer look

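Scd4 had opposite differences between injections on the 2 days, with Tbx6 minus PBS of 3.81 at day 7 and -1.52 at day 30 and all 4 readings above background. With 1 array per group this difference between days was not tested.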

How the results depend on the processing

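With 1 array per group no array could be left out of a test. The day calls numbered 2562 over all filtered genes and 2233 to 2809 under the other fits, and 23 and 21 to 25 in the lipid lists. In addition, 2688 genes differed by at least 1.5-fold in the same direction after both injections, a count added after seeing the data. Within single injections, also added later, Scd4 had a day difference of 0.70 after PBS against -1.97 in the fit, and Elovl6 of -0.086 after PBS against 1.07, both opposite in sign. For Tbx6 minus PBS, raising readings to the highest background probe set moved Elovl6 at day 7 from -1.58 to -0.026, since both readings were at background, and at day 30 from 0.72 to 0.17. It left 1 in place of 2 of the filtered lipogenic genes past 1.5-fold at day 7, and 5 in place of 6 at day 30, where Elovl6 counts on its deposited value. A 2-fold rule left 3 in place of 6 at day 30, by its construction. The differences of Scd4 and Scd1 that were at least 1.5-fold moved by at most 0.05 under quantile normalisation. Median centring shifts all genes of an array alike and moved them by less. Raised background readings and probe set means left them unchanged by construction, since both genes have 1 probe set and 4 readings above background. Signals near background limit Scd3 and Elovl6.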
